A study of Mus musculus with 24 samples.

Results

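The PIDDosome and p53 pathway genes are 10 mouse genes, picked by name for their roles: Casp2, Pidd1, Cradd, Ankrd26, Trp53, Mdm2, Mdm4, Cdkn1a, Ccng1 and Zmat3. They are 10 of the 56923 gene identifiers counted, and all 10 had enough reads to be among the 20368 genes tested. RNA of cardiomyocyte nuclei was sequenced in bulk from newborn and young mice, after nuclei had been sorted for PCM1, a centrosomal protein that gathers around the nucleus of heart muscle cells. Nuclei came at P1, P7 and P14 (postnatal days 1, 7 and 14) from 2 genotypes, which gives 6 groups of 4 libraries. Each library came from a pool of 15 hearts at P1, 6 hearts at P7 and 2 hearts at P14.

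Both genotypes carried a floxed Casp2 gene on both chromosomes (Casp2 fl/fl), and what set them apart was Cre recombinase under the XMLC2 promoter, a cardiac myosin light chain promoter. Control mice were XMLC2-Casp2 fl/fl, without Cre, and the deposited labels give their genotype as WT. Casp2-depleted mice were XMLC2+Casp2 fl/fl, in which Cre removes the floxed part of Casp2 in heart muscle cells. No group had an unmodified Casp2 gene, and none had Cre without the floxed alleles, so the effect of Cre alone and that of losing Casp2 cannot be told apart here. Because of their quality, 3 libraries were left out by the study: replicate 1 of P1 control, replicate 3 of P14 control and replicate 1 of P14 Casp2-depleted. Unless others are named, the 21 other libraries enter the values and tests given here. They number 3 in the P1 control group and in both P14 groups, and 4 in each other group.

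Caspase-2 is a protease that becomes active on the PIDDosome, a complex in which PIDD1 and the adaptor RAIDD (the product of Cradd) bring caspase-2 molecules together. ANKRD26 holds PIDD1 at the distal appendages of mother centrioles, so a cell that keeps extra centrosomes after failed division can switch the complex on. Active caspase-2 cleaves MDM2, the ligase that marks p53 for destruction, and p53 then raises p21 (Cdkn1a) and halts the cell cycle, a route that limits polyploidy in liver. In heart muscle the PIDDosome limits polyploidy as well, and there the authors report no need for p53 but a reliance on p21.

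The counts are reads over the whole gene, introns included. Between 891817 and 2924097 reads lay on genes in each of the 21 libraries, and the median library had 1452114. A level in CPM (counts per 1e6 reads) is the reads of a gene over all reads on genes, scaled by edgeR's TMM factors. A count of 0 in a single library allows up to 3 reads, which is from 1.40 CPM (P7 Casp2-depleted replicate 1) to 2.38 CPM (P1 control replicate 4). Pooled over a group, 3 reads stand for 0.689 CPM in P1 control, 0.434 CPM in P1 Casp2-depleted, 0.485 CPM in P7 control, 0.476 CPM in P7 Casp2-depleted, 0.736 CPM in P14 control and 0.660 CPM in P14 Casp2-depleted. These limits cover counting error only, since reads copied by PCR are not independent molecules.

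Depth differed between days, with a median of 1300426 reads in P1 control, 1649698 in P1 Casp2-depleted, 2102146 in P7 control, 1742143 in P7 Casp2-depleted, 1026886 in P14 control and 1084051 in P14 Casp2-depleted. The share of uniquely placed reads that fell on no gene was 34.3 to 76.1% over the 21 libraries, and all 6 P14 libraries lay between 63.7 and 76.1%. The summed reads of the 10 genes came to 424 in each 1e6 reads on genes in P1 control and 422 in P1 Casp2-depleted. At P7 they came to 519 in control and 425 in Casp2-depleted, and at P14 to 280 and 253. In bulk RNA, fewer cells of a type and less RNA per cell cannot be told apart, and this holds for every level given here.

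Over the 21 libraries, 5 genes held most of the reads: Mdm4 with 4659, Cradd with 3511, Ankrd26 with 2352, Mdm2 with 1814 and Ccng1 with 1294. The other 5 were sparse: Zmat3 had 239 reads, Trp53 133, Pidd1 59, Cdkn1a 47 and Casp2 17. Among the 20368 genes tested, the median gene had 447 reads, so the first 5 lie above it and the last 5 below it. The counts include introns, so reads are also given per kilobase (kb) of gene. The libraries were made from transcript ends, and whether reads grow with gene length was not tested. The orders per kb of gene or exon thus describe reads and are not a ranking of transcript levels. Lengths come from a later annotation release than the one the reads were counted over. On that scale, pooled over the 21 libraries, the order was Ccng1 with 191 reads per kb, Mdm2 with 82.6, Mdm4 with 65.5, Ankrd26 with 38.6 and Cradd with 20.5. Trp53 followed with 10.2 reads per kb, Pidd1 with 9.98, Zmat3 with 7.65, Cdkn1a with 4.81 and Casp2 with 0.970. Cradd moved from the second place in reads to the fifth per kb of gene, since it spans 171 kb. Ccng1, with 6.77 kb, moved from the fifth to the first. Per kb of exon, Cradd was first with 482 reads, before Ccng1 with 294, Ankrd26 with 284, Mdm2 with 235 and Mdm4 with 229. The order per kb of gene also differed between groups. In P7 control, Ccng1 had a mean of 1.94 CPM per kb, below Mdm2 (3.92), Mdm4 (3.86) and Ankrd26 (2.04). In P14 control Ccng1 had 1.70, below Mdm2 (3.15), and in the other groups it was highest.

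**Figure D1:**
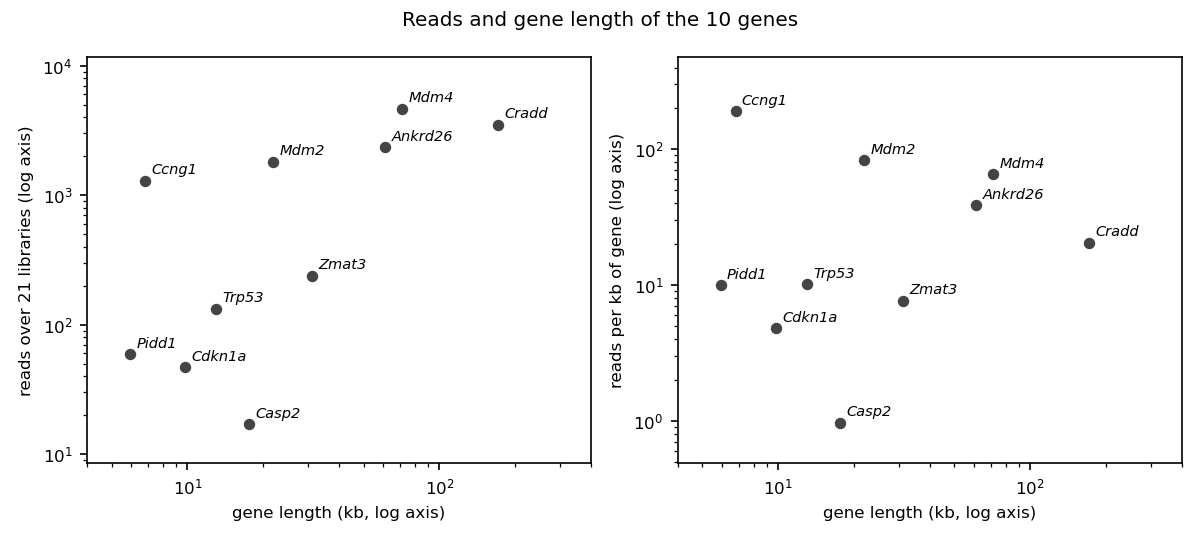
Reads of the 10 genes over 21 libraries (left, log axis) and reads per kb of gene (right, log axis), each against gene length in kb (log axis). Pooled over the libraries, Casp2 is lowest on both scales, with 17 reads and 0.970 reads per kb, and Ccng1 is highest per kb of gene with 191. Per kb of exon, which is not shown, Cradd is highest with 482. In P7 control and P14 control, Mdm2 lies above Ccng1 per kb of gene.

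A gene may be read in some libraries of a group and not in others, and this was the rule for the sparse genes. Of the 210 values that 10 genes in 21 libraries give, 80 were 0. Cradd, Mdm2 and Mdm4 had a read in 20 of 21 libraries, Ankrd26 and Ccng1 in 19, Trp53 in 10, Zmat3 in 8, Casp2 and Pidd1 in 5 and Cdkn1a in 4. The median gene tested had a read in 14 libraries, and 14.9% of the genes tested had a read in all 21, which no gene of the 10 had. Zeros were more frequent than counting error alone gives. Counting error leaves out the spread between pools, so nothing further is concluded from this. In groups where a gene had at least 20 reads in a single library, 18 of 135 values were 0. Poisson counts around the group's level at each library's depth give 0.0195.

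**Figure D2:**
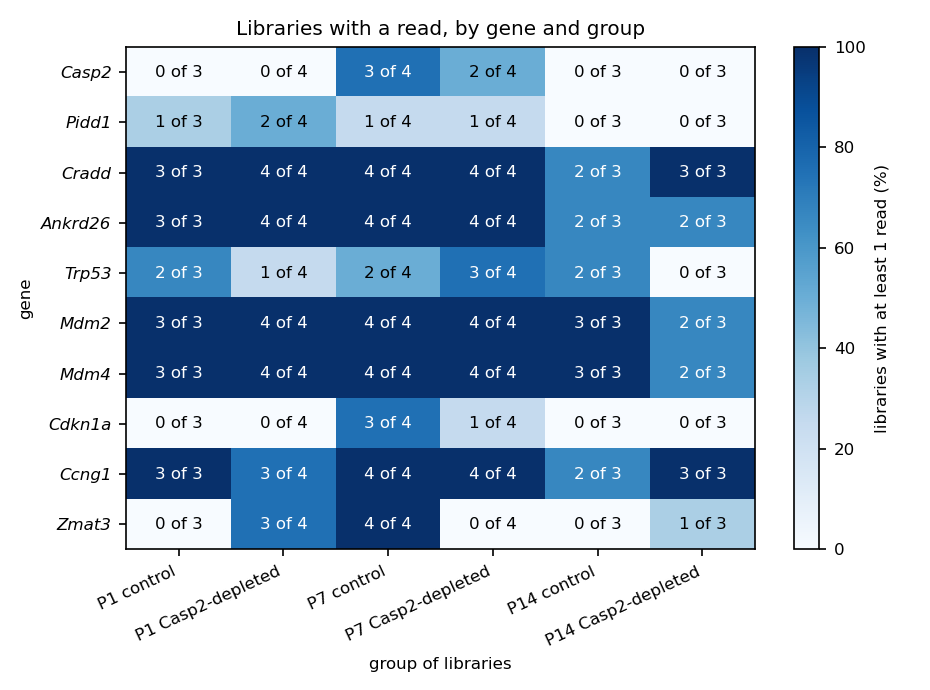
Number of libraries with at least 1 read, for each of the 10 genes (vertical axis) in each of the 6 groups (horizontal axis). Colour gives the percentage of the group's libraries, and Casp2 and Cdkn1a have reads at P7 alone.

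Pidd1 encodes the sensor of the complex. It lies on GRCm39 chromosome 7 from 141018026 to 141023938, on the minus strand. It had 7 reads in P1 control replicate 3, 12 in P1 Casp2-depleted replicate 1 and 8 in replicate 4 of that group. At P7 it had 23 reads in control replicate 2 and 9 in Casp2-depleted replicate 3, and none in the other 6 libraries. All 6 P14 libraries were at 0. Each group that had reads had them in 1 or 2 libraries, so no pair of groups was set apart.

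Cradd encodes the adaptor that links PIDD1 to caspase-2. The gene is the longest of the 10 and lies on chromosome 10 from 95010579 to 95181736, on the minus strand. At P1 it had 18, 134 and 203 reads in control replicates 2, 3 and 4, and 109, 142, 20 and 358 in Casp2-depleted replicates 1 to 4. At P7 the counts were 270, 273, 199 and 221 in control and 388, 243, 210 and 249 in Casp2-depleted. The P14 counts were 126, 94 and 0 in control replicates 1, 2 and 4 and 110, 136 and 8 in Casp2-depleted replicates 2, 3 and 4. The P7 libraries were the most even, and each P1 and P14 group had a library at 20 reads or fewer. Mean levels were 88.6 ± 75.1 CPM (SD, n = 3) in P1 control and 86.4 ± 70.6 CPM (n = 4) in P1 Casp2-depleted. They were 158 ± 29.4 CPM (n = 4) and 173 ± 20.5 CPM (n = 4) at P7. At P14 they were 53.02 ± 46.8 CPM (n = 3) in control and 56.0 ± 44.2 CPM (n = 3) in Casp2-depleted. At each day the genotypes differed by less than their spread, and Cradd stood lower at P14 than at P7 in both without overlap of the libraries (in Casp2-depleted they overlapped by total reads).

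Casp2 encodes the protease itself, and it is the gene that Cre cuts in the Casp2-depleted mice. It lies on chromosome 6 from 42241918 to 42259443, on the plus strand. It had 5, 3, 1 and 0 reads in P7 control replicates 1 to 4, and 5, 3, 0 and 0 in P7 Casp2-depleted replicates 1 to 4. Every P1 and P14 library was at 0. The P7 sums were 9 reads in control and 8 in Casp2-depleted, so a loss of Casp2 RNA was not seen in these counts. A count over the whole gene also does not separate the floxed exons from the rest. Thinned at random to 891817 reads per library, Casp2 kept a read in 3 libraries in place of 5.

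Ankrd26 encodes the protein that holds PIDD1 at the mother centriole. It lies on chromosome 6 from 118478269 to 118539253, on the minus strand. Its P1 counts were 67, 128 and 23 reads in control replicates 2, 3 and 4 and 165, 133, 56 and 281 in Casp2-depleted replicates 1 to 4. At P7 the counts were 206, 207, 112 and 226 in control and 251, 148, 112 and 37 in Casp2-depleted. At P14 they were 0, 15 and 128 in control replicates 1, 2 and 4 and 2, 55 and 0 in Casp2-depleted replicates 2, 3 and 4. Libraries of the genotypes overlapped at each day, and a single library held most of the reads of each P14 group. The highest mean was 125 ± 42.8 CPM (n = 4) in P7 control and the lowest 12.0 ± 19.6 CPM (n = 3) in P14 Casp2-depleted.

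Trp53 encodes p53, the transcription factor at the end of the route. It lies on chromosome 11 from 69469669 to 69482701, on the plus strand, and 11.4% of its length overlaps Wrap53 on the other strand. At P1 it had 0, 22 and 18 reads in control replicates 2, 3 and 4 and 0, 0, 0 and 11 in Casp2-depleted replicates 1 to 4. At P7 the counts were 0, 4, 28 and 0 in control and 7, 22, 10 and 0 in Casp2-depleted. At P14 they were 1, 0 and 10 in control replicates 1, 2 and 4, and 0 in all 3 Casp2-depleted libraries. Reads and zeros stood side by side in 5 of the 6 groups. Much of p53 control acts on the protein, which RNA counts do not measure.

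Mdm2 encodes the ligase that is cut by caspase-2, and it is a p53 target as well. It lies on chromosome 10 from 117524780 to 117546730, on the minus strand. Its P1 counts were 56, 102 and 41 reads in control replicates 2, 3 and 4 and 127, 87, 24 and 93 in Casp2-depleted replicates 1 to 4. At P7 the counts were 141, 160, 128 and 97 in control and 175, 59, 88 and 35 in Casp2-depleted. The P14 counts were 36, 154 and 88 in control replicates 1, 2 and 4 and 67, 56 and 0 in Casp2-depleted replicates 2, 3 and 4. The genotypes overlapped at every day. Mean levels were 45.9 ± 22.3 CPM (n = 3) and 46.8 ± 21.7 CPM (n = 4) at P1, in control and Casp2-depleted. They were 86.1 ± 19.8 CPM (n = 4) and 53.2 ± 23.9 CPM (n = 4) at P7, and 69.0 ± 44.9 CPM (n = 3) and 27.4 ± 24.5 CPM (n = 3) at P14.

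Mdm4 encodes a relative of MDM2 that binds p53 and holds it back, with little ligase activity of its own. It lies on chromosome 1 from 132887222 to 132958299, on the minus strand. At P1 it had 226, 156 and 147 reads in control replicates 2, 3 and 4 and 309, 7, 3 and 804 in Casp2-depleted replicates 1 to 4. At P7 the counts were 743, 423, 360 and 231 in control and 532, 178, 186 and 108 in Casp2-depleted. At P14 they were 25, 80 and 92 in control replicates 1, 2 and 4 and 35, 14 and 0 in Casp2-depleted replicates 2, 3 and 4. The P1 Casp2-depleted group had the widest spread, with 2 libraries near 0 and 2 above all P1 controls. By total reads, its replicate 1 (149 CPM) lay below P1 control replicate 2 (182 CPM). From P7 to P14 all libraries of either genotype stood lower, without overlap.

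Mdm4 levels, in order, were 275 ± 92.2 CPM (n = 4) in P7 control, 148 ± 72.2 CPM (n = 4) in P7 Casp2-depleted and 141 ± 187 CPM (n = 4) in P1 Casp2-depleted. P1 control followed with 121 ± 13.5 CPM (n = 3), P14 control with 49.0 ± 27.6 CPM (n = 3) and P14 Casp2-depleted with 11.1 ± 12.5 CPM (n = 3). The 3 groups between 121 and 148 CPM do not differ beyond their spread. Libraries of the P7 genotypes overlapped, and so did those of the P14 genotypes.

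Cdkn1a, Ccng1 and Zmat3 are p53 targets: p21 blocks cyclin-dependent kinases, cyclin G1 brings a phosphatase to MDM2, and ZMAT3 is a zinc finger protein that binds RNA. The p53 response element is a pair of half-sites of 10 bases each, here without a gap between them. It was searched on both strands in the 3000 bases on each side of the start of each gene, with both half-site cores intact and at most 1 mismatch elsewhere. Matches were found for 3 of the 10 genes and in 157 of the 21618 windows of protein-coding genes, 0.726%. They are shown because the 3 genes are the targets whose reads are described next, in GRCm39 sequence, with the CWWG core of each half-site in capitals.
Cdkn1a: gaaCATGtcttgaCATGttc
Ccng1: acgCAAGcccgggCTAGtct
Zmat3: aaaCAAGcccaggCATGtct
The Cdkn1a match is chr17:29309902-29309921 on the plus strand, 24 bases upstream of the gene's start, with 1 mismatch. The Ccng1 match is chr11:40645763-40645782 on the minus strand, in an intron 376 bases downstream of the start, with 1 mismatch. The Zmat3 match is chr3:32418480-32418499 on the minus strand, in an exon 1674 bases downstream of the start, with 0 mismatches. A match describes letters in a window, and binding was not measured here.

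Cdkn1a lies on chromosome 17 from 29309936 to 29319701, on the plus strand. It had 0, 15, 6 and 25 reads in P7 control replicates 1 to 4 and 1, 0, 0 and 0 in P7 Casp2-depleted replicates 1 to 4. All P1 and P14 libraries were at 0 in both genotypes. The P7 groups overlapped through control replicate 1, and their means were 8.34 ± 8.21 CPM (n = 4) in control and 0.116 ± 0.233 CPM (n = 4) in Casp2-depleted.

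Ccng1 lies on chromosome 11 from 40639377 to 40646148, on the minus strand, and 55.9% of its length overlaps Nudcd2 on the other strand. At P1 it had 250, 46 and 89 reads in control replicates 2, 3 and 4 and 73, 8, 0 and 125 in Casp2-depleted replicates 1 to 4. At P7 the counts were 17, 23, 36 and 5 in control and 76, 33, 67 and 105 in Casp2-depleted. At P14 they were 0, 39 and 7 in control replicates 1, 2 and 4 and 209, 70 and 16 in Casp2-depleted replicates 2, 3 and 4. Control stood above Casp2-depleted in the mean at P1 and below it at P7 and P14. Mean levels were 84.3 ± 60.1 CPM (n = 3) in P1 control and 26.1 ± 29.0 CPM (n = 4) in P1 Casp2-depleted. They were 13.2 ± 8.66 CPM (n = 4) and 45.3 ± 20.6 CPM (n = 4) at P7, and 11.5 ± 15.5 CPM (n = 3) and 67.1 ± 71.1 CPM (n = 3) at P14. The genotypes did not overlap at P7 on the TMM scale, and by total reads alone they overlapped.

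Zmat3 lies on chromosome 3 from 32388941 to 32420163, on the minus strand. It had reads in groups that alternate between the genotypes. At P1 it had 10, 48, 0 and 44 reads in Casp2-depleted replicates 1 to 4 and 0 in all 3 control libraries. At P7 it had 1, 11, 5 and 80 reads in control replicates 1 to 4 and 0 in all 4 Casp2-depleted libraries. At P14 it had 40 reads in Casp2-depleted replicate 3 and 0 in the 5 other libraries. A single library held 80 of the 97 reads of P7 control, and another all 40 of P14 Casp2-depleted. Leaving out P14 Casp2-depleted replicate 3 leaves Zmat3 with no read at P14.

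**Figure D3:**
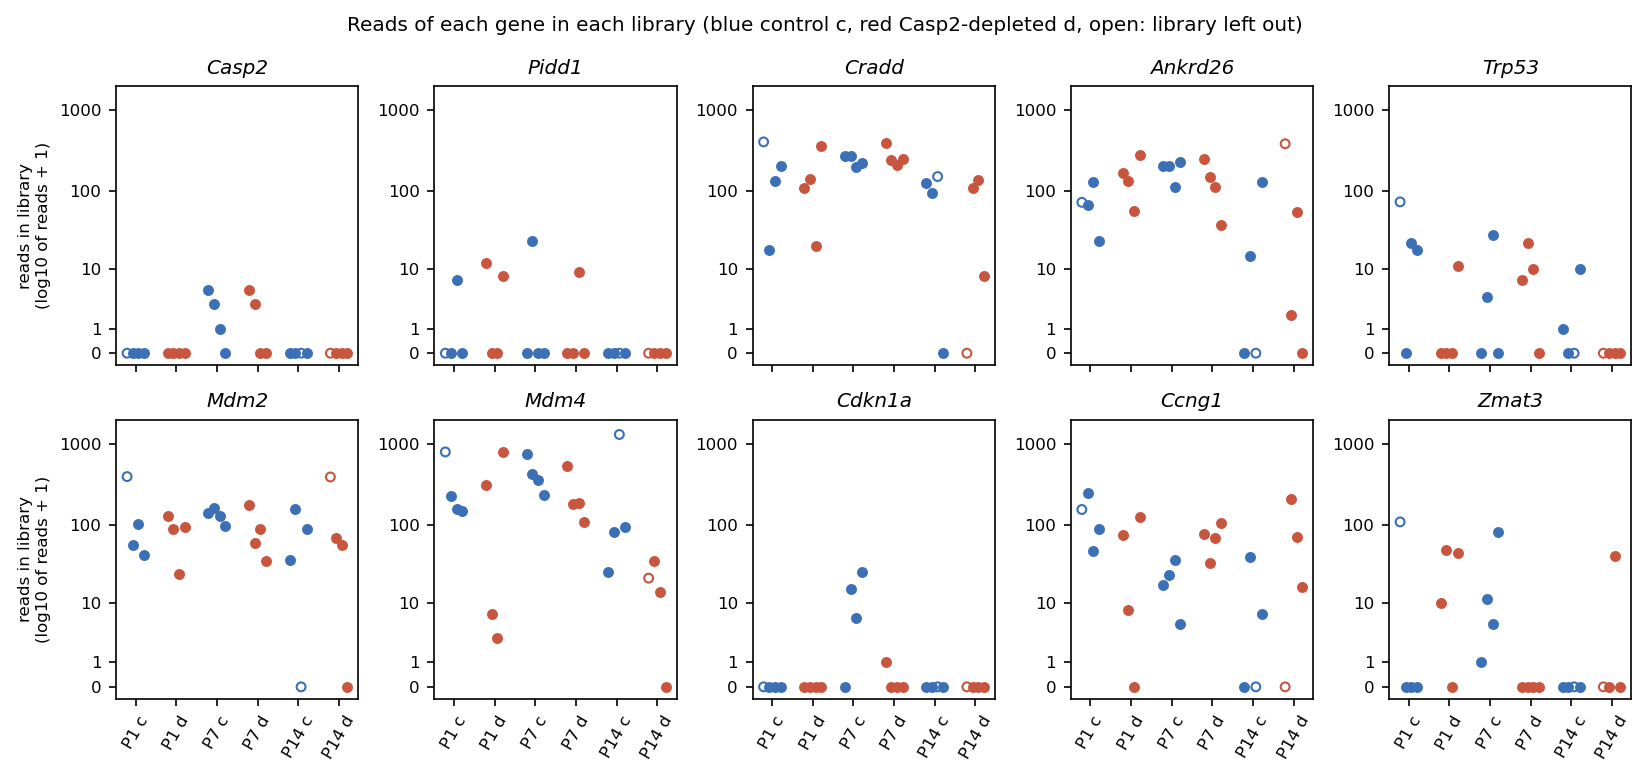
Reads of each of the 10 genes in each library (vertical axis, log10 of reads plus 1), by day and genotype (horizontal axis, blue control, red Casp2-depleted, open circles the 3 libraries left out). Zmat3 has 1 to 80 reads in the 4 P7 control libraries and none in the 4 P7 Casp2-depleted libraries, and Mdm4 has 0 to 35 reads in the 3 P14 Casp2-depleted libraries kept.

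The genotypes were compared at each day to ask what the loss of Casp2 does to these genes. Unless another tool or fit is named, every p from here on comes from the quasi-likelihood test of edgeR. Its Benjamini-Hochberg (BH) adjustment runs over all 20368 genes. To be called, a gene had to have an adjusted p under 0.05 and differ by more than 1 on the log2 scale in either direction. Of all 20368 genes, edgeR put 1303 at an unadjusted p below 0.05 at P1, 791 at P7, 2380 at P14 and 1684 averaged over days. At P1, edgeR called 0 of the 10 genes, and 0% of all genes tested. It put 1 of the 10 at an unadjusted p below 0.05, and DESeq2 and limma-voom called 0 of them. No gene of the 10 had groups that did not overlap at P1, where 3.4% of all genes had.

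At P7, edgeR called 0 of the 10 genes and 0% of all genes tested. It put 1 of the 10, Zmat3, at an unadjusted p below 0.05, and DESeq2 and limma-voom called 0 of them. Groups did not overlap for 2 of the 10, Ccng1 (higher in Casp2-depleted) and Zmat3 (lower), where 1.64% of all genes tested had groups that did not overlap. By total reads this held for Zmat3 alone.

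At P14, edgeR called 0 of the 10 genes and 0.231% of all genes tested, 47 genes (9 with the replicate number as a block). It put 2 of the 10, Mdm4 and Zmat3, at an unadjusted p below 0.05, and DESeq2 and limma-voom called 0 of them. With all 24 libraries fitted, edgeR called Mdm4 at P14, with a log2 fold change of -4.95 and an adjusted p of 0.0247. That fit includes P14 control replicate 3, left out by the study, with 1307 reads of Mdm4. Groups did not overlap for 0 of the 10, where 5.15% of all genes tested had groups that did not overlap. Averaged over the 3 days, edgeR called 0 of the 10 and 0.0344% of all genes tested, with 1 of the 10 (Mdm4) at an unadjusted p below 0.05 and 0 called by DESeq2 or limma-voom.

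For the 5 genes with the most reads, the log2 fold changes of Casp2-depleted against control carried standard errors between 0.71 and 1.49. Cradd gave -0.03 at P1, 0.13 at P7 and 0.08 at P14. Ankrd26 gave 0.84, -0.56 and -1.58, and without P14 control replicate 4 its P14 value was 1.10, and without P14 Casp2-depleted replicate 3 it was -5.59. Mdm2 gave 0.03, -0.69 and -1.33 at the 3 days. All 3 values of Cradd, and those of Ankrd26 and Mdm2 at P1 and P7, lie within their standard errors. The sign turned in at least 1 alternative fit for Cradd, Mdm2 and Mdm4 at P1 and for Cradd, Ankrd26 and Mdm2 at P14.

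Mdm4 gave 0.22 at P1, -0.89 at P7 and -2.13 ± 0.87 (SE) at P14, where the adjusted p was 0.375. At P14 Mdm4 was -3.45 without Casp2-depleted replicate 2 and -1.55 without Casp2-depleted replicate 4. Ccng1 gave -1.68 at P1, 1.78 at P7 and 2.54 ± 1.49 at P14, where the adjusted p was 0.445. At P14 Ccng1 was 1.24 without Casp2-depleted replicate 2 and 4.61 without control replicate 2, and at P1 it ran from -2.60 to -0.95 with 1 library left out. None of these differences passed the test.

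Where a group was at 0, the difference is given as a bound against 3 reads over that group. The reads of the other group are taken as counted. Here and below, "at least" thus leaves out their own counting error, which is large where they are few. Zmat3 was at least 21.4-fold higher in Casp2-depleted at P1, with an adjusted p of 0.680. That bound holds only without P1 control replicate 1, left out by the study, which had 108 reads of Zmat3. At P7 Zmat3 was at least 32.9-fold lower in Casp2-depleted, with an unadjusted p of 0.00964 and an adjusted p of 1. Control replicate 4 held 80 of those 97 reads, and without it the bound for Zmat3 at P7 is 7.37-fold. Without P7 Casp2-depleted replicate 1 it is 21.7-fold, and the P1 bound for Zmat3 is 13.2-fold without P1 control replicate 2. At P14 it was at least 12-fold higher in Casp2-depleted, which rests on replicate 3 alone, with an adjusted p of 0.418. These bounds describe counting and not the spread between pools, and none passed the test. Trp53 was at least 4.09-fold lower in P14 Casp2-depleted, with 11 reads against 0 and an adjusted p of 0.476, and control replicate 4 held 10 of the 11. For Cdkn1a at P7 the ratio of Casp2-depleted to control was 0.0213, from 1 read against 46, with an exact (Clopper-Pearson) 95% counting interval of 0.000529 to 0.125. Its adjusted p was 1, and control replicate 1 had no read either. With its own limma fit, the paper lists Cdkn1a among the genes that differ between the genotypes at P7. It also reports a difference by quantitative PCR in P7 cells of WT and Casp2 knockout mice.

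Days were compared within each genotype to ask how the genes move as heart muscle cells mature. Those comparisons share the P7 libraries of a genotype, so their values are given side by side and are not independent. Of all 20368 genes, edgeR put 1142 at an unadjusted p below 0.05 from P1 to P7 in control and 1415 in Casp2-depleted. For P7 to P14 these numbers were 2721 and 2962. From P1 to P7 in control, edgeR called 0 of the 10 genes and 0.0491% of all genes tested, with 3 of the 10 (Cdkn1a, Ccng1 and Zmat3) at an unadjusted p below 0.05 and 0 called by DESeq2 or limma-voom. Groups did not overlap for 4 of the 10, where 9.76% of all genes tested had groups that did not overlap. These were Mdm2, Mdm4 and Zmat3, higher at P7, and Ccng1, lower at P7. By total reads they were 2, Ccng1 and Zmat3.

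In Casp2-depleted, from P1 to P7, edgeR called 0 of the 10 genes and 0.0245% of all genes tested, with 2 of the 10 (Casp2 and Zmat3) at an unadjusted p below 0.05 and 0 called by DESeq2 or limma-voom. Groups did not overlap for 0 of the 10, where 1.95% of all genes tested had groups that did not overlap. Ccng1 gave a log2 fold change of -2.67 ± 1.35 (SE) in control, with an adjusted p of 0.658, and 0.79 ± 1.22 in Casp2-depleted. Zmat3 was at least 22.8-fold higher at P7 than at P1 in control, and at least 31.0-fold lower in Casp2-depleted. Neither passed the test, with an adjusted p of 0.658 and 0.717. The bound in control holds only without P1 control replicate 1, left out by the study, which had 108 reads of Zmat3. Without P7 control replicate 4 the bound for Zmat3 in control is 5.09-fold, and without P1 control replicate 2 it is 14.1-fold. In Casp2-depleted it is 20.4-fold without P7 replicate 1. Cdkn1a was at least 10.8-fold higher at P7 in control, with an adjusted p of 0.658, or 6.29-fold without P7 control replicate 4 and 6.66-fold without P1 control replicate 2. Casp2 was at least 2.11-fold higher at P7 in control, from 9 reads, and at least 2.93-fold higher in Casp2-depleted, from 8 reads. The adjusted p was 0.658 and 0.718. Without P7 replicate 1 of the genotype, the bound for Casp2 is 1.36-fold in control and no bound is left in Casp2-depleted.

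From P7 to P14 in control, edgeR called 0 of the 10 genes and 1.93% of all genes tested, with 2 of the 10 (Mdm4 and Zmat3) at an unadjusted p below 0.05 and 0 called by DESeq2 or limma-voom. Groups did not overlap for 3 of the 10, where 15.4% of all genes tested had groups that did not overlap: Cradd, Mdm4 and Zmat3, all lower at P14. Of the genes tested, 394 were called, 392 of them lower at P14, and all genes tested had a median of -0.75 on the log2 scale. Mdm4 gave -2.48 ± 0.84 (SE), with an adjusted p of 0.103, and with all 24 libraries fitted its direction turned, to 0.37. Among the 24 is P14 control replicate 3, left out by the study, with 1307 reads of Mdm4. Cradd gave -1.57, Ankrd26 -1.79, Mdm2 -0.32 and Ccng1 -0.20, and the last 2 lie above the median of all genes.

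In Casp2-depleted, from P7 to P14, edgeR called 1 of the 10 genes, Mdm4, and 3.01% of all genes tested. Groups did not overlap for 2 of the 10, Cradd and Mdm4, both lower at P14, where 13.2% of all genes tested had groups that did not overlap. By total reads this held for Mdm4 alone. Mdm4 fell from 148 to 11.1 CPM, a log2 fold change of -3.73 ± 0.90 (SE), with an adjusted p of 0.00292, and all 3 P14 libraries stood below all 4 P7 libraries. Those P14 libraries had 72.2 to 76.1% of uniquely placed reads on no gene, against 34.3 to 64.3% at P7. They had a read of 9428 to 12327 genes, against 14006 to 17770 at P7. The part of this in the fall of Mdm4 was not tested. The median of all genes in the same comparison was -0.61, and of the 613 genes called 611 were lower at P14. The call on Mdm4 was lost without P14 Casp2-depleted replicate 3, where its adjusted p was 0.0521, and without replicate 4, where it was 0.117. It was lost with limma-voom too, and with all 24 libraries fitted. Its adjusted p ran from 0.000921 to 0.117 over 28 alternatives, of which 24 called it. Of the 28, 21 leave out a single library, and many of those libraries lie outside the groups compared here.

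Mdm4 was called in Casp2-depleted and not in control, and that contrast was itself tested. The fall from P7 to P14 differed between the genotypes by -1.24 ± 1.10 (SE) on the log2 scale, with an adjusted p of 0.899. A difference between the genotypes in that fall was thus not detected. The fall in control is absent with all 24 libraries, which include P14 control replicate 3, left out by the study. That library had 1307 reads of Mdm4 and a read of 2049 genes, against 7628 to 13651 genes in the P14 control libraries kept. Of the other genes, Ankrd26 gave -2.80 ± 1.09 from P7 to P14 in Casp2-depleted, with an adjusted p of 0.186. Without P14 Casp2-depleted replicate 3, which held 55 of the 57 reads of that group, Ankrd26 was called, with -6.59 and an adjusted p of 0.00811. Cradd gave -1.62, Mdm2 -0.96 and Ccng1 0.57.

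For sparse genes with a group at 0 the differences between P7 and P14 are again bounds. Zmat3 was at least 21.3-fold lower at P14 than at P7 in control, with an adjusted p of 0.311, and at least 18.5-fold higher at P14 in Casp2-depleted, where P7 was at 0 and P14 replicate 3 held every read, with an adjusted p of 0.257. Without P7 control replicate 4 the bound for Zmat3 in control is 4.77-fold, and without P14 control replicate 1 it is 13.9-fold. Cdkn1a was at least 10.1-fold lower at P14 in control, with an adjusted p of 0.349, or 5.89-fold without P7 control replicate 4 and 6.59-fold without P14 control replicate 1. Trp53 was at least 9.38-fold lower at P14 in Casp2-depleted, with an adjusted p of 0.344, or 5.12-fold without P7 replicate 2. Pidd1 was at least 5.06-fold lower in control and at least 2.16-fold lower in Casp2-depleted, each from the reads of a single P7 library. Casp2 was at least 1.98-fold lower in control and at least 1.92-fold lower in Casp2-depleted, from 9 and 8 reads. Without P7 control replicate 1 the bound for Casp2 is 1.28-fold, and without P7 Casp2-depleted replicate 1 none is left.

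Whether the genotypes differed by day was tested as an interaction for each of the 10 genes. Of all 20368 genes, edgeR put 1298 at an unadjusted p below 0.05 for P7 against P1 and 1879 for P14 against P7. For P7 against P1, edgeR called 0 of the 10 genes and 0% of all genes tested, with 1 of the 10 (Zmat3) at an unadjusted p below 0.05 and 0 called by DESeq2 or limma-voom. For P14 against P7 it called 0 of the 10 and 0.0344% of all genes tested, with 1 of the 10 (Zmat3) at an unadjusted p below 0.05 and 0 called by DESeq2 or limma-voom. Zmat3 had the smallest values of the 10, an unadjusted p of 0.00102 and an adjusted p of 0.606 in the first and 0.00160 and 0.366 in the second. Ccng1 gave an interaction of 3.46 ± 1.82 (SE) for P7 against P1, with an adjusted p of 0.810.

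**Figure D4:**
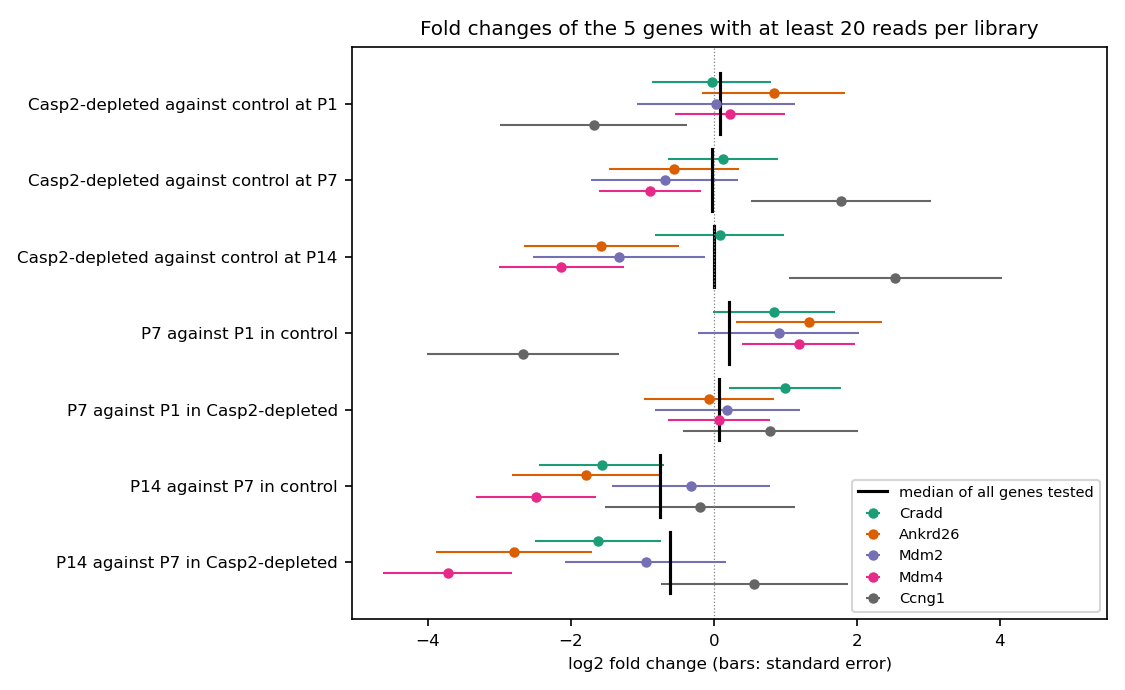
Log2 fold changes (horizontal axis) of the 5 genes with at least 20 reads per library on average, in 7 comparisons (vertical axis). Bars are standard errors and black lines the median of all 20368 genes tested, and Mdm4 from P7 to P14 in Casp2-depleted, at -3.73, is the value that passed the test.

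As a list, the 10 genes had a median log2 fold change of 0.01 at P1, -0.63 at P7 and 0.00 at P14 for Casp2-depleted against control. All genes tested had 0.08, -0.03 and 0.00. From P7 to P14 the median of the 10 was -1.68 in control and -1.04 in Casp2-depleted, with genes at 0 set at their bound, and -2.14 and -2.21 as fitted. All genes tested had -0.75 and -0.61. From P1 to P7 it was 1.13 in control and 0.13 in Casp2-depleted at the bound (1.24 and 0.49 as fitted), beside 0.21 and 0.07 for all genes tested.

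The sorted nuclei carried heart muscle markers, and these moved with day. All 8 cardiomyocyte markers were read, with Ttn the most abundant at 592182 reads and Ryr2 next at 366755. Their summed level was 40136 ± 20059 CPM (SD, n = 3) in P1 control and 46282.5 ± 36220 CPM (n = 4) in P1 Casp2-depleted. It was 93049.5 ± 32850 CPM (n = 4) and 66732 ± 15666 CPM (n = 4) at P7, and 21965 ± 15420 CPM (n = 3) and 14549.5 ± 6287 CPM (n = 3) at P14. In the comparison where Mdm4 fell, P14 against P7, 6 of the 8 markers were called lower in each genotype. Tnni3 gave -3.79, Actn2 -2.73, Tnnt2 -2.64, Myh6 -2.26 and Ttn -2.06 in Casp2-depleted, and the same genes gave -2.87, -3.53, -2.50, -2.30 and -2.24 in control. With 1 library left out, control values ran from -4.34 to -2.25 for Tnni3 and -5.46 to -3.03 for Actn2. They ran from -3.13 to -1.76 for Myh6 and -3.08 to -1.71 for Ttn. In Casp2-depleted, Tnni3 ran from -4.44 to -3.09 and Actn2 from -2.96 to -1.88. From P1 to P7 in control, Ttn (2.22) and Myh6 (1.56) were called higher. Limma-voom called none of the 8 markers in any comparison, robust estimation in edgeR called Ryr2 and Tnnt2 alone, both from P7 to P14 in each genotype, and neither DESeq2 nor filterByExpr called Ttn or Myh6 from P1 to P7. Myh6 was not called there with all 24 libraries or without P1 control replicate 2 either. From P7 to P14 in control, DESeq2 and filterByExpr did not call Ryr2, and all 24 libraries did not call Ryr2, Myh6 or Ttn. DESeq2 did not call Ttn (adjusted p 0.0853) or Actn2 (0.0817) from P7 to P14 in Casp2-depleted. Actn2 was also not called there with filterByExpr (0.0584) or without P7 replicate 1 (0.120) or P14 replicate 3 (0.111). With all 24 libraries, Ryr2, Myh6, Tnnt2 and Ttn were called between the genotypes at P14. The replicate block added Ttn from P1 to P7 in Casp2-depleted, and both the block and no filter added Ttn in the interaction for P7 against P1. The part of this shift in the fall of Mdm4 was not tested.

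Markers of other cells were low beside these. Summed fibroblast markers had group means between 128 CPM in P1 Casp2-depleted and 172 CPM in P14 Casp2-depleted, with Lum the most read, and edgeR called 0 of 7 in any comparison, DESeq2 and limma-voom 1 (Col3a1). Endothelial markers lay between 252 CPM in P7 control and 373 CPM in P14 Casp2-depleted, with Flt1 the most read and 0 of 6 called by edgeR or DESeq2 and 1 (Tie1) by limma-voom. Mural cell markers lay between 164 CPM in P14 Casp2-depleted and 511 CPM in P7 Casp2-depleted, and Abcc9, the most read of them, was called lower from P7 to P14 in Casp2-depleted (-2.84, adjusted p 0.00633), though not without P14 replicate 2 (adjusted p 0.0737) or replicate 4 (0.106), nor with all 24 libraries (0.186) or limma-voom (0.0547). DESeq2 called Abcc9 from P7 to P14 in control too, and Pdgfrb in Casp2-depleted, and limma-voom called 0 of the 7 mural markers. In Casp2-depleted, where Mdm4 was called lower from P7 to P14, summed mural markers were lower at P14 without overlap (324 to 669 CPM at P7, 117 to 198 CPM at P14). Summed endothelial markers overlapped (137 to 562 CPM at P7, 356 to 389 CPM at P14), and so did fibroblast markers (95.3 to 198 CPM, then 103 to 286 CPM). By total reads alone, the endothelial and fibroblast sums were higher at P14 without overlap (116 to 413 CPM, then 474 to 587 CPM, and 82.5 to 145 CPM, then 161 to 349 CPM). Gene by gene, 2 of 6 endothelial markers were higher at P14 with a median log2 fold change of -0.71, and 3 of 7 fibroblast markers with a median of -0.13, beside -0.61 for all genes tested. Of the 7 mural markers, 2 were higher, with a median of -0.28. Abcc9 alone went from 359 to 50.1 CPM, while the mean mural sum went from 511 to 164 CPM. In control the P7 and P14 libraries overlapped for these 3 lists on both scales. The part of these moves in the fall of Mdm4 was not tested. Other cell types gave less. Macrophage markers lay between 80.6 and 140 CPM, led by Mrc1 and with Cd68 at 0 in all 21 libraries, erythroid markers between 6.80 and 52.1 CPM, led by Hbb-bs, and epicardial markers between 11.6 and 48.2 CPM, led by Wt1. EdgeR and DESeq2 called 0 markers of these 3 types, and limma-voom 1 (Hba-a2). Of 13 mitochondrially encoded genes, which stand for RNA from outside the nucleus, 6 were read, led by mt-Nd1. EdgeR called 0, DESeq2 and limma-voom 1 (mt-Co1) and robust estimation 1 (mt-Nd1), all from P7 to P14 in Casp2-depleted. There the 6 genes had a median log2 fold change of -1.58, with 1 higher and 4 at an unadjusted p below 0.05. Their sum lay between 545 CPM in P14 Casp2-depleted and 1479 CPM in P1 control. In Casp2-depleted it ran from 662 to 3542 CPM at P7 and from 381 to 797 CPM at P14, which overlap. The part of this move in the fall of Mdm4 was not tested.

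**Figure D5:**
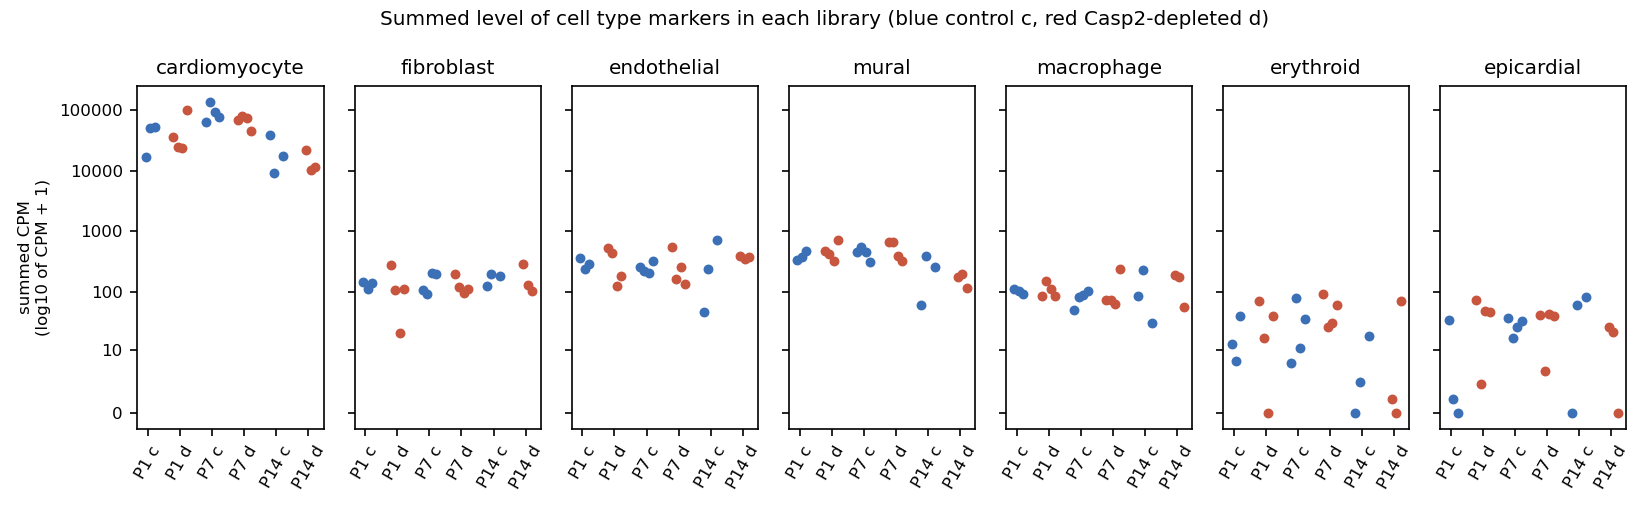
Summed CPM of 7 lists of cell type markers in each of 21 libraries (vertical axis, log10 of CPM plus 1), by day and genotype (horizontal axis, blue control, red Casp2-depleted). Cardiomyocyte markers lie above every other list in all 21 libraries, and have their lowest group mean in P14 Casp2-depleted.

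Other genes of the pathway ranged from genes at 0 to genes with a read in all 21 libraries. Of 33 p53 target genes other than the 10, 25 were tested and edgeR called 0 in any comparison of genotypes or days, with 0 to 3 per comparison at an unadjusted p below 0.05. DESeq2 and limma-voom each called 2 of them, Polk and Tigar. Sesn1 (4004 reads) and Pvt1 (2101 reads) were the most read and the only ones with a read in all 21 libraries, and Bbc3, Gtse1, Pmaip1 and Rps27l were at 0. The median log2 fold change of the targets tested was 0.00 at P1, -0.04 at P7 and 0.00 at P14 for Casp2-depleted against control, beside 0.08, -0.03 and 0.00 for all genes tested.

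Among 19 relatives and regulators of p53, all tested, edgeR called Crebbp alone, which encodes an acetyltransferase that acts on p53. Crebbp fell from 607 ± 249 CPM (n = 4) at P7 to 99.2 ± 63.1 CPM (n = 3) at P14 in control, a log2 fold change of -2.61 with an adjusted p of 0.0125. In Casp2-depleted it fell from 379 ± 85.3 CPM (n = 4) to 66.8 ± 36.7 CPM (n = 3), with -2.50 ± 0.68 (SE) and an adjusted p of 0.0129. The P7 and P14 libraries did not overlap in either genotype. The control call was lost without P7 control replicate 2, P14 control replicate 2 or P14 control replicate 4, with adjusted p of 0.122, 0.136 and 0.0809. That in Casp2-depleted was lost without P7 replicate 1, P14 replicate 2 or P14 replicate 3, with 0.0534, 0.0770 and 0.219. Other fits lost these calls as well. In control, Crebbp was not called with all 24 libraries (adjusted p 0.419), filterByExpr (0.0598) or limma-voom (0.0856). In Casp2-depleted, Crebbp was not called with all 24 libraries (0.253), filterByExpr (0.0611), DESeq2 (0.0568) or limma-voom (0.146). DESeq2 called Kat5 from P7 to P14 in Casp2-depleted, and limma-voom called Kat5 and Trp53bp1 from P7 to P14 in control. Crebbp had the most reads of the list with 9665, and Hipk2, a kinase that acts on p53, followed with 6379.

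Mother centriole appendages are the structure to which ANKRD26 belongs, and 10 of 11 genes of that list were tested. From P7 to P14 in control, Cep83 (-4.79, adjusted p 0.0173) and Cntrl (-3.92, adjusted p 0.0199) were called lower, and all 3 P14 libraries lay below the 4 P7 libraries for both. Cep83 was not called without P7 control replicate 3 or P14 control replicates 1 or 4 (adjusted p 0.0906, 0.0826 and 0.0533), nor with all 24 libraries (0.168) or filterByExpr (0.0561). Cntrl was not called without P7 control replicates 2 or 3 or P14 control replicates 2 or 4 (adjusted p 0.123, 0.0529, 0.118 and 0.113), nor with limma-voom (0.101) or all 24 libraries, where it gave -0.39 (0.971). DESeq2 and robust estimation called Cntrl from P7 to P14 in Casp2-depleted too. DESeq2 also called Cep164 from P7 to P14 in control, and Cep83 between the genotypes at P14. In Casp2-depleted, Lrrc45 was called, at least 38.5-fold lower at P14 (160 reads against 0, adjusted p 0.0466), though a P7 library was at 0 as well and the bound for Lrrc45 is 10.2-fold without P7 replicate 1. DESeq2 called Lrrc45 there too, but it was not called with all 24 libraries, filterByExpr, no filter, limma-voom, the replicate block or robust estimation. Cep128 (3964 reads) and Odf2 (3513 reads) were the most read. Ttbk2 was at 0 in all libraries, and it lies inside Cdan1 on the same strand.

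Of 16 caspases and death domain proteins, 15 were tested and edgeR called 0 in any comparison, with 0 to 3 per comparison at an unadjusted p below 0.05. Tradd was among the genes that limma-voom called. Cflar (2185 reads) and Xiap (2012 reads) were the most read. Of 6 inhibitors of cyclin-dependent kinases other than Cdkn1a, all were tested and edgeR called 0, with 0 to 2 per comparison at an unadjusted p below 0.05 and 0 called by DESeq2 or limma-voom. Cdkn2b had 1112 reads and Cdkn1b had 204.

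For the 5 genes with at least 20 reads per library on average, the genes of most similar pattern were sought among 10520 genes, by the rank correlation of log2 CPM over 21 libraries (Spearman's rho). This is a description over libraries that share day and depth. Cradd was most like Phf20l1 (0.92), Tcf7l2 (0.91) and Gjc1 (0.91). Mdm4 was most like Cetn3 (0.91), Srsf4 (0.91) and Tnrc6a (0.91). Nothing is read from these names about shared function or control. Ankrd26 was most like Srr (0.85), Upf2 (0.84) and Kcnn2 (0.83). Mdm2 was most like Anxa7 (0.77), Cish (0.74) and Ddx1 (0.72), and Ccng1 was most like Gm29103 (0.83), Fancl (0.75) and 1700123J17Rik (0.74). Among the 5 genes themselves, the highest value was 0.72 for Ankrd26 with Mdm4, and the lowest -0.20 for Ankrd26 with Ccng1.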

How the data were processed

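The deposited counts are raw reads per gene, which the authors made from single-end reads of transcript ends (QuantSeq 3′ FWD) by trimming with cutadapt 4.0, alignment with STAR 2.6.1e to GRCm39 and counting over the full gene with HTSeq 2.0.3. Strand setting and molecular identifiers are not stated. Over all 24 libraries, genes nested in a gene of the opposite strand had a median of 27 reads. Those nested on the same strand had 0, so the counting used strand. Depth ran from 891817 to 2924097 reads, and a count of 0 was read as up to 3 reads.

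A gene was tested if its reads came to 10 or more and fell in 3 or more of the 21 libraries. The fit used edgeR 4.0.16 (R 4.3.3), TMM scaling, 6 group means, 15 residual degrees of freedom and default estimation of the spread. The common biological coefficient of variation was 1.50. Standard errors are the log2 fold change over the root of the F statistic, and log2 CPM has a prior count of 2. Python 3.11.15, numpy 2.4.6, pandas 2.3.3, scipy 1.17.1 and matplotlib 3.10.9 made the other values. Gene coordinates, lengths and overlaps come from a later annotation release than the counts, and it names 56236 of the 56923 identifiers.

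Alternatives were DESeq2 1.42.0, limma 3.58.1 (voom), all 24 libraries, filterByExpr, no filter, the adjusted p alone, the replicate number as a block, thinning to 891817 reads, CPM by total reads, and each library left out in turn. Robust estimation in edgeR was added after the default fit had been seen. The labels call the replicate number a batch. Deviations from the group mean correlated between same-numbered control and Casp2-depleted libraries of a day with a median of 0.0425 over 9 pairs (8 above 0, at most 0.179), and of -0.0130 over 28 pairs of other numbers (10 above 0). The fit has no block, and the block is given as an alternative.

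Members and lists were chosen with earlier results of these data known. Named from each other list were all called genes, at most 5 per comparison by absolute fold change, and the 2 genes with the most reads. For likeness, the 3 genes of highest rho were named. Genes called only in an alternative (Polk, Tigar, Kat5, Trp53bp1, Cep164, Tradd, Col3a1, Tie1, Pdgfrb, Hba-a2 and mt-Co1), genes at 0, and Cdan1, were named after their values had been seen. Another gene of these lists is not reported here.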

Additional observations from a re-analysis of the deposited data

Results flagged for a closer look

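In groups of 4 libraries, 27 sets of values were examined for a library far from the other 3, by its gap to the nearest library over the range of the group (Dixon's 95% critical value). Of the 27, 6 were marked. The critical value assumes normal values, and beside 3 libraries at 0 any read is marked, which holds for 4 of the 6, so no chance rate is given. Each is a high library beside zeros or lower counts. Pidd1 stood at 16.5 CPM in P7 control replicate 2 and at 6.17 CPM in P7 Casp2-depleted replicate 3, with the other libraries at 0. Trp53 stood at 5.48 CPM in P1 Casp2-depleted replicate 4 and at 18.3 CPM in P7 control replicate 3. Cdkn1a stood at 0.466 CPM, a single read, in P7 Casp2-depleted replicate 1. Zmat3 stood at 59.8 CPM in P7 control replicate 4, beside 0.521, 7.90 and 3.26 CPM in replicates 1 to 3.

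In the 3 libraries that the study left out, 8 of 30 values of these genes lay above the highest library kept of the control group of their day, as CPM by total reads, and 22 did not. In P1 control replicate 1, Trp53 had 22.1 CPM against 14.2 CPM, Mdm2 119 against 66.1, Mdm4 240 against 182 and Zmat3 32.6 against 0. In P14 control replicate 3, Cradd had 142 CPM against 98.5 and Mdm4 1229 against 103. In P14 Casp2-depleted replicate 1, Ankrd26 had 267 CPM against 144 and Mdm2 271 against 150. Among the other 22, P14 control replicate 3 had no read of Ankrd26, Trp53, Mdm2 or Ccng1, and P14 Casp2-depleted replicate 1 none of Cradd, Trp53 or Ccng1. Each value was set against the highest of 3 libraries, and the share over all genes was not computed, so no chance rate is given. P1 control replicate 1 had 9169 CPM of mitochondrially encoded genes by total reads, against 676 to 2473 CPM in the P1 controls kept. The paper proposes that this library held RNA from the cytoplasm. P14 control replicate 3 had a read of 2049 genes and P14 Casp2-depleted replicate 1 of 4285. The P14 libraries kept had 7628 to 13651. Among the fits, the libraries left out enter only that of all 24 libraries, and they also enter the medians of nested genes. Of 20 tests of a genotype difference between days, for 10 genes and 2 pairs of days, 0 passed in edgeR, with 2 at an unadjusted p below 0.05 and 0 called by DESeq2 or limma-voom.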

How the results depend on the processing

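Numbers of genes called depended on the tool. DESeq2 called 105 genes for Casp2-depleted against control at P1, 25 at P7, 662 at P14 and 214 averaged over days. It called 88 from P1 to P7 and 1031 from P7 to P14 in control, 46 and 1171 in Casp2-depleted, and 66 and 246 in the interactions for P7 against P1 and P14 against P7. Limma-voom called 49 at P1, 116 at P14 and 0 averaged over days, 49 from P1 to P7 and 1150 from P7 to P14 in control, 8 from P1 to P7 in Casp2-depleted, and 4 in the first interaction. With all 24 libraries edgeR called 6 and 51 in control, 2 and 166 in Casp2-depleted and 2 averaged over days. With filterByExpr, which tests fewer genes and 7 of the 10, it called 9 at P14, 0 and 214 in control, 0 and 402 in Casp2-depleted, 2 averaged over days and 2 in the second interaction. The replicate block gave 9 at P14, 2 averaged over days, 1 and 3 in the interactions, and no filter gave 1 in the first interaction. Robust estimation, added after the default fit had been seen, gave 2 from P1 to P7 in control and 3 averaged over days. Except with fewer genes or other libraries, the cause of these differences was not tested.

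The call of Mdm4 from P7 to P14 in Casp2-depleted held in 24 of 28 alternatives, DESeq2, the block and robust estimation among them, with log2 fold changes from -5.12 to -2.96. Of the 28, 21 leave out a single library, and many of those libraries lie outside the groups compared. With all 24 libraries (-3.71) and with limma-voom (-5.12), 0 of the 10 genes were called there. The call was also lost without P14 Casp2-depleted replicate 3 or replicate 4. With all 24 libraries 1 of the 10, Mdm4, was called at P14 between the genotypes. By total reads, genes whose groups did not overlap became 1 at P7, 2 from P1 to P7 in control and 1 from P7 to P14 in Casp2-depleted.

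Signs turned for differences that had not passed the test. At P1, Cradd gave 0.073 with DESeq2 and 0.38 with limma-voom, Mdm2 -0.46 with all 24 libraries and -0.0008 with limma-voom, and Mdm4 -0.15 with all 24 libraries, -1.65 with limma-voom and -0.12 with the block. At P14, all 24 libraries gave Cradd -0.80, Ankrd26 0.97 and Mdm2 0.35. All 24 libraries, from P7 to P14, gave Mdm4 0.37 in control and Mdm2 0.37 in Casp2-depleted. For Ccng1 DESeq2 gave 0.039 in control, and limma-voom -0.065 and the block -0.066 in Casp2-depleted. From P1 to P7 in Casp2-depleted, DESeq2 gave Mdm4 -0.060. The cause was not tested. Of 364 fold changes under the settings other than leaving out a library, 300 kept sign and call, 47 lost the call, 1 gained it and 16 turned.

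Leaving out each library in turn gave 21 to 249 genes called at P14 (fewest without P1 Casp2-depleted replicate 1, most without P14 control replicate 2), 2 to 12 from P1 to P7 and 180 to 507 from P7 to P14 in control, 2 to 16 and 266 to 769 in Casp2-depleted, 3 to 44 averaged over days, and 0 to 1 and 4 to 70 in the interactions. Of the 10 genes, 0 to 1 were called from P7 to P14 in Casp2-depleted. Values at P1 ran from -0.62 to 0.72 for Cradd, -0.17 to 0.50 for Mdm2 and -1.18 to 0.63 for Mdm4. At P14 they ran from -0.51 to 0.72 for Cradd and -5.59 to 1.10 for Ankrd26. Between P7 and P14 they ran from -0.70 to 0.078 for Mdm2 and -2.06 to 0.39 for Ccng1 in control, and from -0.73 to 1.24 for Ccng1 in Casp2-depleted. From P1 to P7 in Casp2-depleted they ran from -0.32 to 0.23 for Ankrd26, -0.13 to 0.43 for Mdm2 and -0.34 to 1.44 for Mdm4. Other values kept their sign and moved in size. Ankrd26 ran from 0.44 to 1.59 at P1 and -0.76 to -0.27 at P7, Mdm2 from -0.97 to -0.45 at P7 and -1.97 to -0.72 at P14, and Cradd from 0.047 to 0.26 at P7. Between P1 and P7 in control, Cradd ran from 0.27 to 1.59, Ankrd26 from 0.94 to 2.09, Mdm2 from 0.69 to 1.38 and Ccng1 from -3.11 to -1.99. In Casp2-depleted, Cradd ran from 0.64 to 1.57 and Ccng1 from 0.38 to 1.66. Between P7 and P14 Cradd ran from -2.16 to -0.99 and Ankrd26 from -4.46 to -1.10 in control, and Cradd from -1.93 to -0.88 and Mdm2 from -1.59 to -0.18 in Casp2-depleted. Of 1092 values, 30 turned, 20 lost the call and 1 gained it.

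Median log2 fold changes of all genes moved between settings, and the cause was not tested. From P7 to P14 they were -0.46 in control and -0.26 in Casp2-depleted with DESeq2. With limma-voom they were -1.15 and -0.92, and with the block -1.10 and -0.86.

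Thinned to 891817 reads, Casp2 kept a read in 3 of its 5 libraries and Zmat3 in 6 of 8. The other sparse genes lost no library, with Pidd1 read in 5, Trp53 in 10 and Cdkn1a in 4. A level under 1.40 to 2.38 CPM can be missed in a single library. Libraries are pools of hearts, so the spread between animals is not seen, and RNA counts do not show protein or cleavage.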
